A study of Mus musculus with 12 samples.

Results

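Loss of Rab11a from the intestinal epithelium was set directly against loss of Rab11b in the mouse small intestine. RNA had been sequenced from whole jejunal tissue of adult mice, in 3 libraries for each group. The AKO group had the genotype Rab11aL/L, VillinCreER+, in which floxed Rab11a is removed by a Cre recombinase that tamoxifen activates. The BKO group was Rab11b-/-, the DKO group combined all of these alleles (Rab11aL/L, Rab11b-/-, VillinCreER+), and the WT group is given as WT with no further allele. Every mouse, WT included, had received 40 mg/kg of tamoxifen 2 days before the tissue was taken. The villin promoter is active in the epithelium, so muscle, stroma, vessels and immune cells of AKO tissue keep Rab11a, whereas the Rab11b allele is null in the whole animal. The labels do not say whether BKO or WT mice carried Cre or the floxed allele, so Cre with tamoxifen and loss of Rab11a cannot be told apart. They also do not say that the numbered libraries came from separate animals, so every p-value here measures the spread between these libraries, which may be technical. The genes compared were those with a deposited value of at least 1 in at least 3 of the 6 AKO and BKO libraries, which held for 13065 of the 23988 genes. The comparison itself used 6 of the 12 libraries, and the other 6 served to estimate the spread and to show where WT and DKO tissue lay.

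Rab11a and Rab11b are closely related small GTPases that mark recycling endosomes and carry internalised cargo back to the cell surface, and in polarised epithelium to the apical membrane. They work through the FIP adaptor proteins, class V myosin motors and the exocyst, and Rab25 is the epithelial member of the same subfamily. Recycling endosomes also collect at spindle poles in dividing cells, and the series is about an overlapping role of the pair in the spindle of intestinal progenitors. The direct comparison of the single losses shows where jejunal tissue that lacks the epithelial copy of Rab11a differs from tissue that lacks Rab11b.

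The 6 libraries held 19200380 to 29828587 reads assigned to genes. BKO replicate 3 stood apart from the rest. On the first principal component of the 6 libraries, which took 62.9% of the variance, it lay at 87.3, and the other 5 lay between -20.7 and -14.1. Its log2 values correlated best with the DKO libraries (r = 0.932 to 0.952 across genes) and less with BKO replicates 1 and 2 (0.915 and 0.902), yet its Rab11a and Rab11b values, given below, were those of its label. The median standard deviation of a gene was 0.31 log2 units over the 3 BKO libraries, 0.11 over BKO replicates 1 and 2, and 0.16 over the AKO libraries. Results are therefore given with and without BKO replicate 3. Xist, the RNA of the inactive X chromosome, was at 0.156, 223 and 0 in AKO replicates 1, 2 and 3, against 201.1, 254 and 0.22 in BKO replicates 1, 2 and 3, so Xist-high libraries were unevenly spread. The 10 genes that limma calls below kept their direction among the Xist-high libraries and among the Xist-low libraries. As their AKO and BKO libraries did not overlap, this was fixed in advance and is no test of Xist state. Markers of intestinal region were mixed for tissue labelled jejunum. Gata4, a transcription factor of the proximal small intestine, was at 0.407 to 0.877 in AKO, 0.507 to 4.59 in BKO and 0.53 to 1.21 in WT libraries, and Lct, the lactase gene, did not exceed 0.263 in any of the 12. Other genes of the proximal list were well expressed: Heph, an iron oxidase of the absorptive cell, was at 366 to 394 in AKO, 279 to 526 in BKO and 303 to 449 in WT libraries. Fabp6, the ileal bile acid binding protein, was at 4225 to 13330 in AKO, 2914 to 10289 in BKO and 6109 to 11015 in WT libraries. Slc10a2, the ileal bile acid transporter, was at 568 to 814 in AKO, 587 to 836 in BKO and 614 to 713 in WT libraries. Onecut2, of the proximal list, did not exceed 0.585 in these 3 groups, and Hoxb13, of the distal and colon list, was at 0 in all 12 libraries. Where along the intestine the tissue was taken was not tested.

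The targeted transcripts differed as the genotypes are written. Rab11a was at 48.9, 67.2 and 62.0 fpm (the deposited unit, read counts scaled by the authors) in AKO, against 199.8, 215.3 and 275.0 fpm in BKO and 182, 188.3 and 188.2 fpm in WT libraries. The AKO libraries lay far below all BKO libraries, and the log2 difference AKO minus BKO was -1.93 ± 0.15 (SE; limma adjusted p = 0.000223). The highest Rab11a value of the 12 libraries was that of BKO replicate 3. Rab11b was at 115.9, 115.6 and 104.2 fpm in AKO, against 28.1, 30.6 and 22.4 fpm in BKO and 118.7, 119.5 and 110.3 fpm in WT libraries. Rab11b was thus high in every AKO library and low in every BKO library (2.02 ± 0.12, adjusted p = 3.3e-05). Neither transcript was at 0 in its own knockout tissue. In DKO libraries Rab11a was at 109.7, 96.0 and 111.5 fpm, above all AKO and below all WT libraries, and Rab11b was at 21.7 to 24.6 fpm. The cause of the higher Rab11a values in DKO than in AKO libraries was not tested. Rab25 was at 86.8, 79.8 and 83.9 fpm in AKO, against 87.2, 72.9 and 110.7 fpm in BKO libraries. These Rab25 values overlapped (-0.09 ± 0.14, adjusted p = 0.827), and the small difference changed sign without BKO replicate 3 (0.06). The authors' handling of reads that fit several genes is not given in the sources used here, so some reads of these related genes may have been split.

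**Figure D1:**
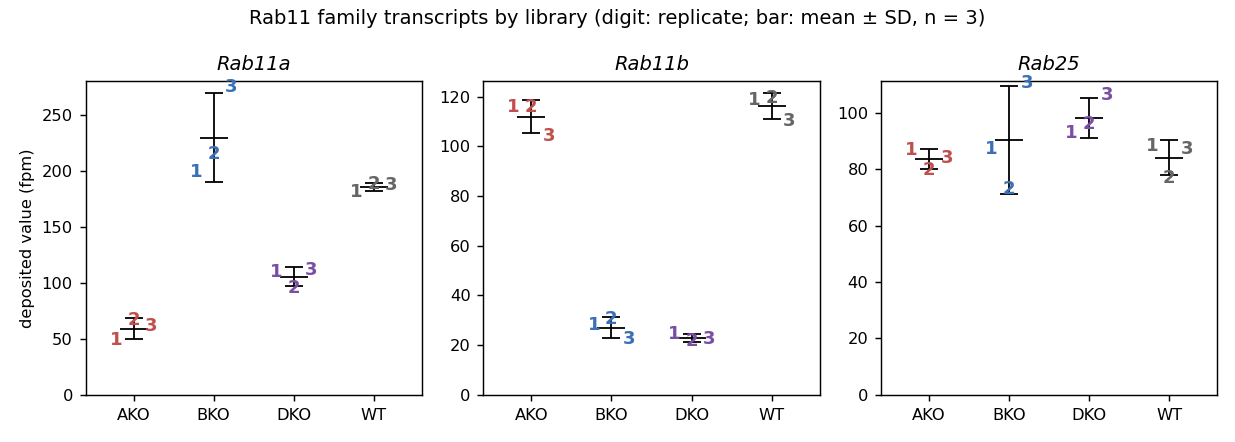
Deposited values (fpm, linear axis from 0) of Rab11a, Rab11b and Rab25 in each library of AKO, BKO, DKO and WT tissue; digits give the replicate and bars the mean ± SD of 3 libraries. Rab11a was lowest in AKO, at 48.9 to 67.2 fpm, Rab11b was at 22.4 to 30.6 fpm in BKO, and Rab25 overlapped between AKO and BKO.

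Of 24 listed members and effectors, 23 were measured, and Rab11a and Rab11b were the only called genes (edgeR called the same number, 1 in each direction, and DESeq2 called 3). Their median difference was 0.09, and 0.02 without BKO replicate 3, beside -0.01 and 0.00 for all genes. Rab3il1, which encodes the Rabin8-related exchange factor GRAB, was at 2.63, 2.18 and 2.46 fpm in AKO, against 1.16, 0.901 and 1.21 fpm in BKO libraries. All AKO libraries were higher, but the difference did not pass the limma test (0.71 ± 0.15, adjusted p = 0.229); it was the third gene called by DESeq2. Myo5b, the motor that moves Rab11 vesicles in enterocytes, was at 345, 430 and 359 fpm in AKO and 424, 402 and 359 fpm in BKO libraries, which overlapped (-0.07 ± 0.16). Rab11fip1, an adaptor that binds Rab11, differed by -0.09 ± 0.17 with overlapping libraries.

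At a limma adjusted p under 0.05, 10 of 13065 genes were called, which is 0.0765% of those tested, 9 higher and 1 lower in AKO. At an unadjusted p under 0.05 there were 1395 genes, 602 higher and 793 lower in AKO. Counts of list members at that level are to be read beside these. The gene lists were chosen with earlier results of these data known, so their counts and medians describe the data and are no independent support. The count and its main direction depended on the tool: DESeq2 on the recovered reads called 213 genes (1.63%), 72 higher (0.551%) and 141 lower (1.08%) in AKO, and edgeR called 5 (0.0383%), 4 higher and 1 lower. DESeq2 gave no adjusted p for some genes, and these were not counted as called. Calls below are limma's unless another tool is named. Without BKO replicate 3 the count was 14 (0.107%), with 8 higher and 6 lower in AKO, and 8 genes were called in both. No overlap between the 3 AKO and the 3 BKO libraries was seen for 829 genes that were higher in AKO (6.35%) and 1199 that were lower (9.18%). Without BKO replicate 3 fewer libraries have to be apart, and these counts over all genes were 1722 (13.2%) and 2255 (17.3%). Of the 10 called genes, 8 lay closer to WT in AKO and 2 lay closer to WT in BKO. Against WT, which both groups share as control, 1 of the 10 was called in AKO (Rab11a) and 5 in BKO (Rab11b, Gm8801, H2-Bl, Gdpd3 and Pianp).

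**Figure D2:**
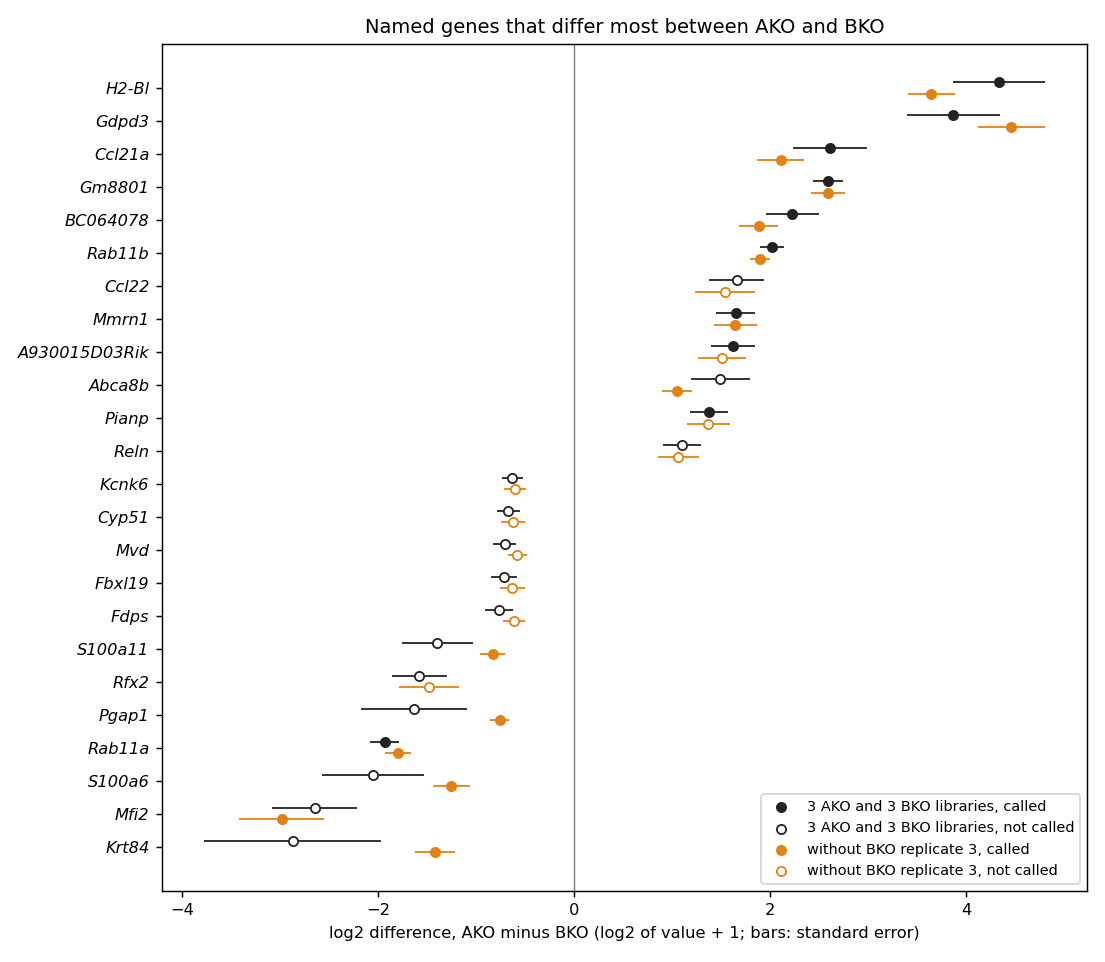
Log2 difference AKO minus BKO (log2 of the value plus 1) with its standard error for the genes with the largest or best supported differences, with all libraries in black and without BKO replicate 3 in orange; filled points are genes called at an adjusted p under 0.05. H2-Bl and Gdpd3 lay farthest to the right, at 4.33 and 3.87, and Krt84, S100a6, S100a11 and Pgap1 were called only without BKO replicate 3.

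A group of 3 called genes besides Rab11b lay on chromosome 17, the chromosome of Rab11b. Gm8801, a transcribed pseudogene, was at 5.54, 4.71 and 4.82 fpm in AKO (177, 121 and 110 reads) and at 0 in all BKO libraries. It was also at 0 in all DKO libraries, and at 4.81, 6.36 and 4.33 fpm in WT libraries. With 3 reads per library taken as the floor of the BKO libraries, the AKO mean was at least 36.0-fold higher; the limma adjusted p was 3.3e-05. H2-Bl, a transcribed pseudogene related to the class I antigen-presenting genes, was at 84.1, 142.8 and 77.9 fpm in AKO, against 5.94, 8.05 and 0.881 fpm in BKO libraries. DKO libraries held 0.606 to 1.01 fpm of H2-Bl and WT libraries 107.4 to 128.0 fpm, so the 2 groups with the Rab11b null allele were low and the 2 without it were high. The difference was 4.33 ± 0.47 (adjusted p = 0.00667), and since class I genes are near copies of each other, reads of H2-Bl may be shared with its relatives. A930015D03Rik, a long noncoding RNA, was at 4.16, 7.78 and 3.90 fpm in AKO, against 0.928, 1.35 and 0.697 fpm in BKO libraries. The groups did not overlap (1.62 ± 0.23, adjusted p = 0.0338), DKO libraries were at 0.416 to 0.686 fpm and WT libraries at 4.15 to 4.61 fpm, and the call was lost without BKO replicate 3 (adjusted p = 0.0647).

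In RefSeq's gene order on GRCm38.p6, Gm8801, A930015D03Rik and H2-Bl lay 149, 154 and 160 listed genes from Rab11b, and only 5 and 6 genes from each other. Among the 100 genes on each side of Rab11b, 132 were measured and 0 were called by limma. At an unadjusted p under 0.05 there were 20, beside 1395 of all 13065 genes. DESeq2 called 4, namely Angptl4, Kank3, Hspa1a and Hspa1b, beside 1.63% of all genes. Angptl4, the next gene after Rab11b, was at 20.3, 67.1 and 16.7 fpm in AKO, against 66.6, 149.6 and 168.7 fpm in BKO libraries. These overlapped (-2.02 ± 0.49, adjusted p = 0.274). Kank3, the gene after it, was higher in all AKO libraries (0.63 ± 0.16, adjusted p = 0.279). The median difference of the 132 was 0.00, and 11 were higher and 15 lower in AKO without overlap, which is 8.33% and 11.4%. Around Rab11a on chromosome 9, 131 of the nearest genes were measured, 0 were called (13 at an unadjusted p under 0.05; DESeq2 called 1), and the median was -0.04. Of the 666 other measured genes of chromosome 17, 3 were called, and of the 733 others of chromosome 9, 0. Of 26 measured class I genes, H2-Bl alone was called, and the median of all 26 was 0.77 with all libraries and -0.04 without BKO replicate 3. B2m, the light chain of class I molecules, was at 2020.4 to 2388 fpm in AKO, against 2099, 2434 and 229.5 fpm in BKO libraries, so BKO replicate 3 alone was low.

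The largest called difference outside chromosome 17 was that of Gdpd3, a lysophospholipase D of the glycerophosphodiester phosphodiesterase family. Gdpd3 was at 36.8, 56.5 and 30.2 fpm in AKO, against 0.928, 0.788 and 5.36 fpm in BKO libraries. The AKO libraries lay below, within and above the WT range of 35.3 to 42.3 fpm, and all BKO libraries were well below it (3.87 ± 0.47, adjusted p = 0.0115; 4.46 without BKO replicate 3). DKO libraries, at 2.74 to 7.61 fpm, were also low. Pianp, a neuronal and immune receptor ligand that binds PILR-alpha, was at 4.38, 2.96 and 3.86 fpm in AKO, against 0.974, 0.676 and 0.807 fpm in BKO libraries. Here the BKO libraries were the lower ones without overlap (1.37 ± 0.20, adjusted p = 0.0349), while DKO libraries, at 3.98 to 7.08 fpm, were not low; without BKO replicate 3 the adjusted p was 0.0619. BC064078, a long noncoding RNA, was at 7.64, 8.01 and 9.82 fpm in AKO, against 1.30, 1.86 and 0.257 fpm in BKO and 1.90 to 3.11 fpm in WT libraries. This was a gene that lay closer to WT in BKO and was highest in AKO (2.22 ± 0.27, adjusted p = 0.0115).

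The remaining called genes are products of lymphatic vessels. Mmrn1 encodes a multimerin, a secreted protein of lymphatic endothelium and platelets. Its values were 22.3, 34.6 and 26.3 fpm in AKO, against 8.30, 7.83 and 8.04 fpm in BKO and 12.9, 16.97 and 20.3 fpm in WT libraries. The AKO libraries lay above the WT range and the BKO libraries below it (1.64 ± 0.20, adjusted p = 0.0115; 1.64 without BKO replicate 3, adjusted p = 0.0225). Ccl21a, a chemokine that lymphatic endothelium secretes to guide dendritic cells and T cells, was at 25.9, 18.8 and 26.4 fpm in AKO, against 4.68, 4.67 and 0.991 fpm in BKO and 9.42, 16.1 and 10.8 fpm in WT libraries. Again all AKO libraries were above all WT libraries and all BKO libraries below them (2.61 ± 0.38, adjusted p = 0.0349; 2.10 without BKO replicate 3, adjusted p = 0.00607). Ccl21a has near-identical copies in the mouse genome, so its count is uncertain where reads fit several of them. Against WT alone neither gene was called in either group: for Mmrn1 the differences were 0.70 in AKO and -0.95 in BKO, and for Ccl21a 0.93 and -1.68.

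A list of 10 lymphatic endothelial genes was drawn up after these values were seen, so it describes the data and supports nothing. Of its 9 measured members 2 were called, both higher in AKO, and 6 were higher in AKO without overlap, beside 6.35% of all genes. The median difference was 0.72, and 0.92 without BKO replicate 3, beside -0.01 and 0.00 for all genes. The summed level of the list was 109 to 128 fpm in AKO, 47.1 to 53.8 fpm in BKO and 67.7 to 94.6 fpm in WT libraries. Reln, the secreted glycoprotein reelin that lymphatic vessels also make, was at 10.9, 12.3 and 12.5 fpm in AKO, against 5.47, 4.90 and 4.70 fpm in BKO libraries, without passing the limma test (1.10 ± 0.19, adjusted p = 0.121). Flt4, the receptor for the lymphatic growth factor VEGF-C, was at 8.17, 12.7 and 7.85 fpm in AKO, against 2.41, 2.82 and 4.0001 fpm in BKO libraries (1.37 ± 0.31, adjusted p = 0.255). Both genes were higher in all AKO libraries, and DESeq2 called both. Prox1, the transcription factor that sets lymphatic identity, was at 2.69, 2.18 and 2.06 fpm in AKO and at 2.18, 1.86 and 2.09 fpm in BKO libraries. Prox1 overlapped between the groups (0.12 ± 0.17), as did Pdpn and Sox18. In whole tissue, fewer cells of a type and less RNA per cell cannot be told apart.

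Endothelial genes in general were also counted. Of 17 endothelial genes, 3 of which (Flt4, Lyve1 and Prox1) are also on the lymphatic list, 0 were called by limma (11 at an unadjusted p under 0.05, all higher in AKO; DESeq2 called Cdh5, Kdr and Flt4, edgeR 0). Without overlap 10 were higher in AKO and 0 lower, beside 6.35% and 9.18% of all genes. Over all 13065 genes, 602 were higher in AKO at an unadjusted p under 0.05. The median difference was 0.58, with 0.56 among Xist-high and 0.45 among Xist-low libraries, and 0.64 without BKO replicate 3. Cdh5, the cadherin of endothelial junctions, was at 7.76, 5.72 and 6.10 fpm in AKO, against 3.11, 2.25 and 3.41 fpm in BKO libraries, all AKO values being higher (0.94 ± 0.20, adjusted p = 0.229). Relative to WT the list lay at a median of 0.34 in AKO and -0.40 in BKO. The fibroblast list had a median of 0.32 (0.24 without BKO replicate 3). Of its 19 genes, 3 were higher and 1 lower in AKO without overlap, beside the same shares of all genes. The summed level of the fibroblast list was 708, 656 and 789.6 fpm in AKO, against 707, 623 and 493 fpm in BKO libraries, which overlapped. Dpt, the matrix protein dermatopontin, was at 27.4, 28.9 and 25.0 fpm in AKO, against 12.3, 7.88 and 3.49 fpm in BKO libraries. Dpt did not overlap (1.79 ± 0.34, adjusted p = 0.151), whereas Dcn, the matrix proteoglycan decorin, was at 80.9, 59.1 and 94.8 fpm in AKO, against 90.4, 134 and 91.1 fpm in BKO libraries, which overlapped (-0.42 ± 0.19). Smooth muscle genes had a median of 0.96, which was 0.35 without BKO replicate 3, and their summed level was 2206, 5042 and 2928 fpm in AKO, against 2099, 2830 and 723.9 fpm in BKO libraries. The part of the amount of muscle or vessel in each piece of tissue in these differences was not tested.

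**Figure D3:**
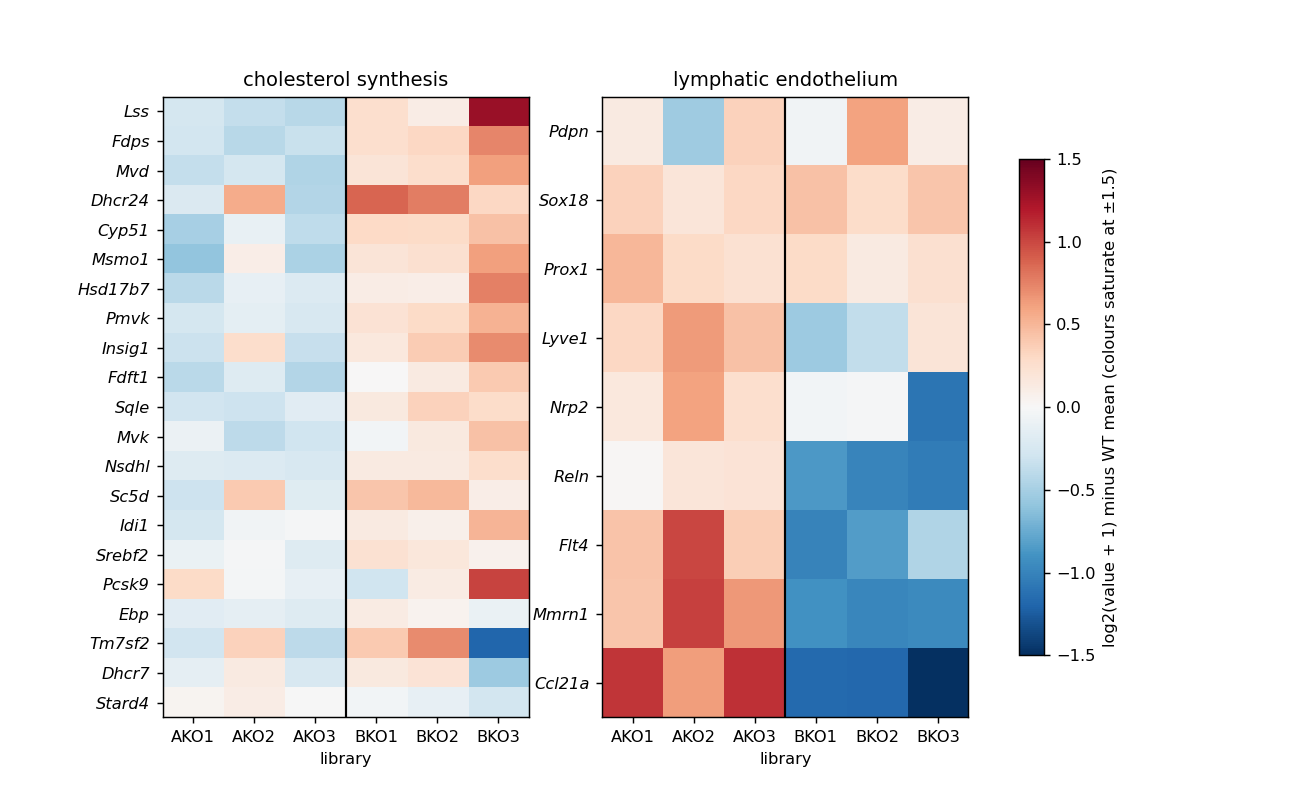
Log2 level (value plus 1) of measured genes of the cholesterol synthesis list (left) and the lymphatic endothelium list (right) in each AKO and BKO library, relative to the WT mean; red is above and blue below WT. Most cholesterol genes were below WT in AKO and above it in BKO libraries, and Mmrn1 and Ccl21a had the opposite order.

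Genes of cholesterol synthesis lay mostly on the other side. This pathway makes cholesterol from acetyl-CoA, and its genes are switched on together by SREBP2 when cell sterol falls. Of 23 measured genes, 22 had a difference below 0. Without overlap 15 were lower in AKO and 1 higher, beside 9.18% and 6.35% of all genes. Without BKO replicate 3 these counts were 19 and 1, beside 17.3% and 13.2% of all genes. By limma 0 of the 23 were called (16 at an unadjusted p under 0.05, all lower in AKO), and edgeR also called 0. DESeq2 called 8, all lower in AKO: Mvd, Cyp51, Fdps, Pmvk, Nsdhl, Fdft1, Sqle and Lss. The median difference was -0.51 with all libraries, -0.40 without BKO replicate 3, -0.22 among Xist-high and -0.78 among Xist-low libraries. Against WT the list median was -0.16 in AKO and 0.32 in BKO, so each group lay on its own side of WT. By library the list lay at -0.27, -0.05 and -0.24 relative to WT in AKO, against 0.19, 0.24 and 0.44 in BKO.

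Mvd, mevalonate diphosphate decarboxylase, was at 53.7, 57.4 and 50.1 fpm in AKO, against 79.3, 82.7 and 106 fpm in BKO and 66.7 to 73.5 fpm in WT libraries. All AKO libraries were below WT and all BKO libraries above it (-0.71 ± 0.12, adjusted p = 0.11). Cyp51, lanosterol 14-alpha-demethylase, was at 262, 342 and 284 fpm in AKO, against 456, 451 and 504.5 fpm in BKO and 360.3 to 381 fpm in WT libraries. It showed the same order around WT (-0.68 ± 0.12, adjusted p = 0.121). Fdps, farnesyl diphosphate synthase, was at 167, 152 and 160.1 fpm in AKO, against 240.3, 251 and 337 fpm in BKO libraries, again without overlap (-0.77 ± 0.14, adjusted p = 0.134). The exception above 0 was Stard4, a carrier of cholesterol within cells, at 292, 308 and 283 fpm in AKO and 276, 261 and 234 fpm in BKO libraries (0.20 ± 0.12).

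Promoters of these genes were read to show what the group shares in sequence. For 15 of the listed genes RefSeq's table of GRCm38.p6 held the 300 bases from 250 before to 50 after the gene start. The motif CCAAT, which NF-Y binds next to SREBP at sterol genes, was found on either strand in 14 of the 15 (93.3%), against 10248 of 27025 promoters in the table (37.9%). TCACNCCA, a strict form of the core of the sterol regulatory element, was found on either strand in 2 of the 15 (13.3%), against 1158 of 27025 (4.28%). Other forms of the element were not searched, so a promoter without this match may still hold one. The motifs were searched separately, so a run that holds both counts for each. Mvd and Cyp51 are shown because they had the smallest p-values of the list, and Msmo1, a sterol methyl oxidase, because it held both motifs, as did Srebf2, the gene of SREBP2 itself. Capitals mark CCAAT, its reverse complement ATTGG, and in Msmo1 the match to TCACNCCA. The intervals are chr8:122443373-122443672 (minus strand) for Mvd, chr5:4104648-4104947 (minus strand) for Cyp51 and chr8:64733529-64733828 (minus strand) for Msmo1.
Mvd: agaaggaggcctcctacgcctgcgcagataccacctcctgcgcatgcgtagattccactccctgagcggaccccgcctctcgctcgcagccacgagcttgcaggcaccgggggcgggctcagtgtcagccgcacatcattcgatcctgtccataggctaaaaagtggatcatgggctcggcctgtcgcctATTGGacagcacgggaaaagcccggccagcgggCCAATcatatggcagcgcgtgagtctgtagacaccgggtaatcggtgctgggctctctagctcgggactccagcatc
Cyp51: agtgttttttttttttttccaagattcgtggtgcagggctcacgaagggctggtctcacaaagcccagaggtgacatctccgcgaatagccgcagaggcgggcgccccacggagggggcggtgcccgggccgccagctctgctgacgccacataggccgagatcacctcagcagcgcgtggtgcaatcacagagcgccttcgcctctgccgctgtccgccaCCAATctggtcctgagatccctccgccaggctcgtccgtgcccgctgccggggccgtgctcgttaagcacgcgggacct
Msmo1: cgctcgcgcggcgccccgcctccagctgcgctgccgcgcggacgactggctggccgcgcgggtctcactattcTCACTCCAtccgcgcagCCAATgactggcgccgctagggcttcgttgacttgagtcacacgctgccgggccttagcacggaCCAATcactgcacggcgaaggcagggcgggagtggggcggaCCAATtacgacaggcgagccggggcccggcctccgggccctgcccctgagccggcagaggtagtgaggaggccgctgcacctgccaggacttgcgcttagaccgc
A match of this kind describes the letters in the window only. Msmo1 itself was at 238, 386 and 260.1 fpm in AKO, against 412, 427 and 555 fpm in BKO libraries (-0.67 ± 0.20), so AKO replicate 2 came close to the BKO values without reaching them.

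Genes of fat uptake varied more between libraries. Apoa4, an apolipoprotein that enterocytes put on chylomicrons, was at 47.8, 94.7 and 86.7 fpm in AKO, against 466, 459 and 3068 fpm in BKO and 158, 252 and 545 fpm in WT libraries. All AKO libraries were below all WT libraries and 2 of the 3 BKO libraries lay within the WT range (-3.55 ± 0.69, adjusted p = 0.187; -2.64 without BKO replicate 3, adjusted p = 0.0848). Plin3, a lipid droplet coat protein, was at 258, 268 and 278 fpm in AKO, against 369, 364 and 456 fpm in BKO libraries (-0.55 ± 0.12, adjusted p = 0.241). Of the 20 fat uptake genes 0 were called by limma (8 at an unadjusted p under 0.05, all lower in AKO; edgeR 0; DESeq2 called Apoa4, Fabp1 and Plin3). The list's median was -0.46 with all libraries, -0.44 without BKO replicate 3, -0.05 among Xist-high and -0.72 among Xist-low libraries. By library its level relative to WT was -0.39, 0.19 and -0.51 in AKO, against 0.19, 0.25 and 0.32 in BKO, so AKO replicate 2 lay with the BKO libraries. The enterocyte list, with 26 measured genes, had a median of -0.01, or -0.31 without BKO replicate 3.

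Genes of secretory cells varied by cell type. Muc2, the gel-forming mucin of goblet cells, was at 832, 1303 and 811 fpm in AKO, against 1865, 2078 and 1945 fpm in BKO and 940, 966 and 1004 fpm in WT libraries. The BKO libraries were close together and above all others of these 3 groups (-1.03 ± 0.26, adjusted p = 0.279). Muc2 stood with Spdef and Fut2 as the goblet genes that DESeq2 called lower in AKO, while limma and edgeR called 0 of the 15 (4 at an unadjusted p under 0.05). The goblet median was -0.15, and Tff3 and Zg16, further products of goblet cells, overlapped. Ang4, an antimicrobial ribonuclease of Paneth cells, was at 63.1, 59.7 and 54.2 fpm in AKO, against 141, 109 and 131 fpm in BKO libraries, without overlap (-1.08 ± 0.28, adjusted p = 0.279). Its difference was nearly the same without BKO replicate 3 (-1.06), whereas the median of the 20 Paneth genes was -0.75 with and -0.36 without that library. Lyz1, the Paneth lysozyme, was at 1703, 1825 and 1271 fpm in AKO and at 2564, 629 and 4319.9 fpm in BKO libraries, and the alpha-defensins are near copies whose reads may be shared. Tuft genes had a median of -0.33 (-0.71 without BKO replicate 3) and enteroendocrine genes 0.09; limma called 0 of either list (0 and 1 at an unadjusted p under 0.05; edgeR and DESeq2 0).

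Crypt genes were read in the same way. Olfm4, a secreted glycoprotein of crypt stem cells, was at 219, 310 and 309 fpm in AKO, against 106, 33.3 and 182 fpm in BKO libraries. No BKO library reached the lowest AKO value (1.66 ± 0.51, adjusted p = 0.325; 2.19 without BKO replicate 3). Lgr5, the receptor that marks cycling stem cells, was at 13.5, 15.6 and 15.0 fpm in AKO and 8.49, 5.80 and 14.9 fpm in BKO libraries. There BKO replicate 3 equalled the AKO values. Without BKO replicate 3 the share of all genes that were higher in AKO without overlap was 13.2%, against 6.35% with all libraries, and the counts of the next 3 lists are to be read beside it. Of 21 stem cell and Wnt genes 3 were higher in AKO without overlap, or 8 without BKO replicate 3, and limma called 0 in either case (5 at an unadjusted p under 0.05 with all libraries; edgeR and DESeq2 0). Of 22 replication genes, 0 were apart with all libraries and 8 were higher in AKO without BKO replicate 3, and their median was 0.01 with and 0.46 without it. Pcna, the sliding clamp of DNA polymerase, was at 99.9, 107 and 102 fpm in AKO, against 71.6, 54.1 and 152 fpm in BKO libraries (0.29 ± 0.30, and 0.72 without BKO replicate 3). Of 30 spindle and mitosis genes, 0 were apart with all libraries, and 9 were higher and 2 lower in AKO without BKO replicate 3, beside 17.3% of all genes lower. Their median was 0.06 with and 0.40 without that library. By limma, edgeR and DESeq2 0 of the replication and spindle genes were called, and 0 had an unadjusted p under 0.05. By library the spindle list lay at 0.10, -0.33 and 0.28 relative to WT in AKO, against -0.18, -0.56 and 0.69 in BKO, so AKO replicate 2 lay among the BKO libraries.

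**Figure D4:**
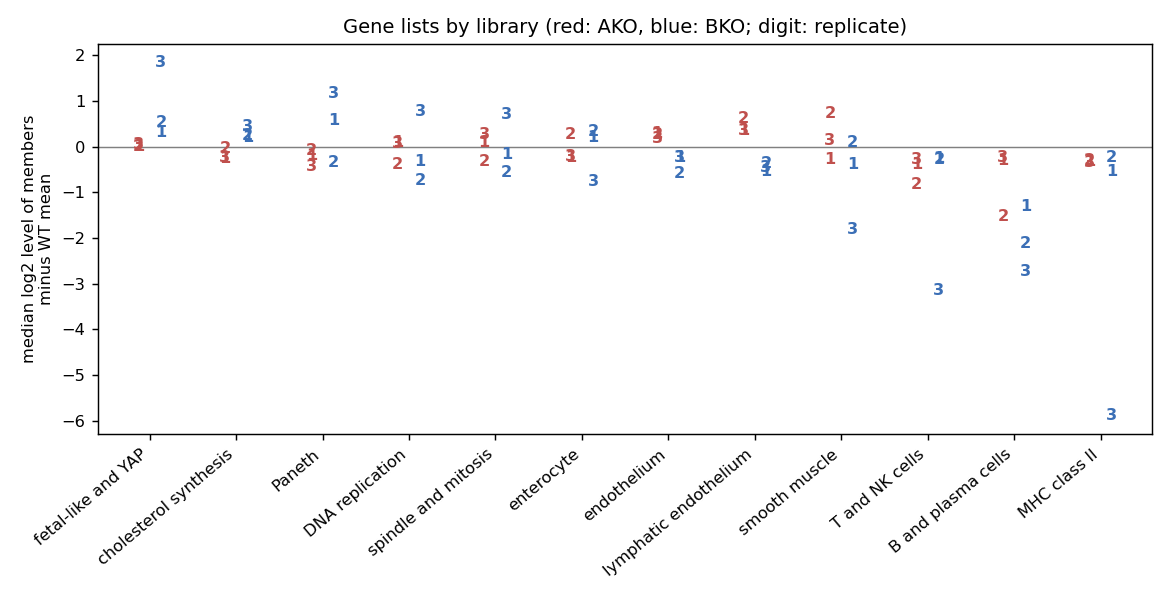
Median log2 level of the measured members of 12 gene lists in each AKO (red) and BKO (blue) library, relative to the WT mean; each digit is the replicate number. The lists of fetal-like and YAP genes, cholesterol synthesis, endothelium and lymphatic endothelium separated the groups with all 3 BKO libraries on the same side. The lymphatic list was drawn up after values of its genes were seen, so its separation supports nothing. The other lists were chosen with earlier results of these data known, so their separation is no independent support either. MHC class II and T and NK cell genes were far below WT in BKO replicate 3 alone.

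By limma 6 genes were called only when BKO replicate 3 was left out, all but Abca8b lower in AKO. DESeq2 called 4 of them with all libraries, namely Mfi2, S100a6, S100a11 and Abca8b, and gave no adjusted p for Krt84 and Pgap1. S100a6, a calcium-binding protein of growing and injured epithelium, was at 159, 202 and 182 fpm in AKO, against 349, 534 and 2293 fpm in BKO and 179 to 182 fpm in WT libraries. AKO lay around the WT level and all BKO libraries above it (-2.06 ± 0.52, adjusted p = 0.279; -1.25 and 0.0453 without BKO replicate 3). S100a11, of the same family, was at 80.3, 80.2 and 88.5 fpm in AKO, against 142, 156 and 484 fpm in BKO libraries, with an adjusted p of 0.0415 without BKO replicate 3 (-0.83). Pgap1, which remodels GPI anchors, was at 25.1, 26.7 and 23.5 fpm in AKO, against 43.7, 42.8 and 271 fpm in BKO libraries (-0.76 and adjusted p = 0.0146 without BKO replicate 3). Krt84, a hair keratin, was at 2.22, 2.06 and 1.36 fpm in AKO, against 6.59, 6.70 and 156 fpm in BKO libraries (-1.42 and 0.0327 without that library). In each of these genes BKO replicates 1 and 2 lay between the AKO libraries and BKO replicate 3, and the DKO libraries were high as well, S100a6 at 2057 to 2800 fpm and Krt84 at 93.5 to 113 fpm. Mfi2 (now Meltf), an iron-binding melanotransferrin, differed from these. It was at 0.720, 0.895 and 0.965 fpm in AKO, against 15.4, 12.2 and 6.31 fpm in BKO, 0.366 to 0.436 fpm in DKO and 1.4995 to 9.13 fpm in WT libraries. The AKO and DKO libraries were low, and WT libraries varied widely (-2.65 ± 0.43, adjusted p = 0.0952; -2.99 and 0.035 without BKO replicate 3). Abca8b, a lipid transporter, was the gene higher in AKO, at 9.45, 8.48 and 7.59 fpm, against 4.17, 3.04 and 0.844 fpm in BKO libraries (1.05, adjusted p = 0.035 without BKO replicate 3).

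S100a6 and S100a11 belong to the list of fetal-like and YAP-driven genes, which mark regenerating intestinal epithelium. Of its 24 measured genes, 11 were lower in AKO without overlap and 0 higher, beside 9.18% and 6.35% of all genes. Without BKO replicate 3 these counts were 12 and 0, beside 17.3% and 13.2% of all genes. The median was -0.91, and -0.36 without BKO replicate 3, and the library levels relative to WT were 0.00, 0.01 and 0.04 in AKO, against 0.30, 0.52 and 1.85 in BKO. AKO tissue was thus at the WT level, and the BKO libraries were above it by very different amounts. Krt7, a keratin of simple epithelia, was at 141, 137 and 102 fpm in AKO, against 243, 255 and 958 fpm in BKO libraries (-1.63 ± 0.42, adjusted p = 0.279; -0.99 without BKO replicate 3). Limma called 0 of the 24 with all libraries (11 at an unadjusted p under 0.05, all lower in AKO) and 2 without BKO replicate 3; edgeR called 0 and DESeq2 called 7, all lower in AKO. Ly6a, a surface protein of the regenerating state, was not apart: AKO libraries held 36.7, 22.5 and 62.6 fpm and BKO libraries 27.0, 25.8 and 415 fpm.

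Genes that separate DKO from WT were read out in the single losses. At an adjusted p under 0.05 and at least 2-fold, 806 genes were higher in DKO than in WT (6.17%) and 920 were lower (7.04%). Over the 806 the AKO minus BKO median was -0.31, and 72.5% of them were lower in AKO. Without BKO replicate 3 these values were -0.08 and 58.9%, beside 50.7% of all genes. Over the 920 genes lower in DKO the median was 0.40, with 11.5% lower in AKO, and without BKO replicate 3 it was -0.10, with 63.8% lower in AKO. The sign for that set therefore turned with the single library. Taken by library against the AKO mean, the medians of the 806 genes were 0.08, 0.10 and 0.75 in BKO replicates 1, 2 and 3, and those of the 920 genes were 0.05, 0.15 and -1.29.

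Immune gene lists depended on the same library. The 9 MHC class II genes had a median of 1.96 with all libraries and 0.11 without BKO replicate 3, and the 21 interferon gamma genes 1.09 and 0.23. The 23 T and NK cell genes had a median of 0.70 with that library and -0.32 without it. Their summed level was 332, 255 and 408 fpm in AKO, against 411, 497 and 12.4 fpm in BKO and 447 to 513 fpm in WT libraries. Cd3e, a chain of the T cell receptor complex, was at 14.9, 7.78 and 17.1 fpm in AKO and at 15.9, 15.1 and 0 fpm in BKO libraries. B and plasma cell genes kept a positive median, 1.39 with and 0.94 without BKO replicate 3, but it was -0.00 among Xist-high libraries. Their summed level was 1576, 1092 and 2321 fpm in AKO, against 1154, 769 and 359 fpm in BKO and 2159 to 2423 fpm in WT libraries, so most AKO and BKO libraries were below WT. The macrophage and dendritic cell list had a median of 0.49 (0.58 without BKO replicate 3). Limma, edgeR and DESeq2 called 0 genes of these lists, but DESeq2 gave no adjusted p for some members, H2-DMb2 and Mrc1 among them. Beside 1395 of all 13065 genes at an unadjusted p under 0.05, there were 1 of 9 MHC class II and 4 of 21 interferon gamma genes. There were also 1 of 23 T and NK cell, 5 of 12 B and plasma cell and 4 of 18 macrophage and dendritic cell genes.

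Ccl22, a chemokine of dendritic cells that attracts regulatory T cells, had the smallest p of the genes higher in AKO that limma did not call. It was at 2.32, 4.75 and 3.03 fpm in AKO, against 0.603, 0.338 and 0.147 fpm in BKO libraries, without overlap (1.65 ± 0.28, adjusted p = 0.11). On the lower side Kcnk6, a potassium channel, was at 29.6, 32.2 and 33.0 fpm in AKO, against 48.4, 48.5 and 51.8 fpm in BKO and 27.6 to 30.1 fpm in WT libraries. AKO was at the WT level and the BKO libraries were tightly above it (-0.63 ± 0.11, adjusted p = 0.11). Rfx2, a transcription factor of ciliated and germ cells that lies on chromosome 17, was at 3.19, 2.92 and 1.80 fpm in AKO, against 11.4, 7.10 and 11.3 fpm in BKO libraries (-1.58 ± 0.28, adjusted p = 0.121). Fbxl19, an F-box protein that binds unmethylated CpG islands, was at 37.4, 36.1 and 36.6 fpm in AKO, against 54.6, 60.3 and 69.0 fpm in BKO libraries, with no overlap (-0.72 ± 0.13, adjusted p = 0.134). DESeq2 called all 4 of these genes. Fbxl19 lies 55 listed genes from Gdpd3 on chromosome 7.

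Among genes of membrane recycling, 10 of 25 were lower in AKO without overlap and 2 higher, beside 9.18% and 6.35% of all genes. The differences were small. The median was -0.06, and by limma 0 were called (6 at an unadjusted p under 0.05; edgeR 0; DESeq2 called Ehd4 lower and Exoc4 higher). Ehd4, an ATPase that shapes recycling tubules, was at 62.0, 51.5 and 59.7 fpm in AKO, against 90.0, 82.0 and 112 fpm in BKO and 50.1 to 66.8 fpm in WT libraries. AKO and WT libraries overlapped and all BKO libraries were higher (-0.70 ± 0.15, adjusted p = 0.241). Ehd1, of the same family, was at 172, 214 and 166 fpm in AKO, against 242, 258 and 244 fpm in BKO and 203 to 227 fpm in WT libraries (-0.44 ± 0.12, adjusted p = 0.303). Of 16 polarity genes 4 were lower in AKO without overlap, beside 9.18% of all genes, and their median was -0.09. By limma, edgeR and DESeq2 0 were called, and 3 had a limma unadjusted p under 0.05.

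**Figure D5:**
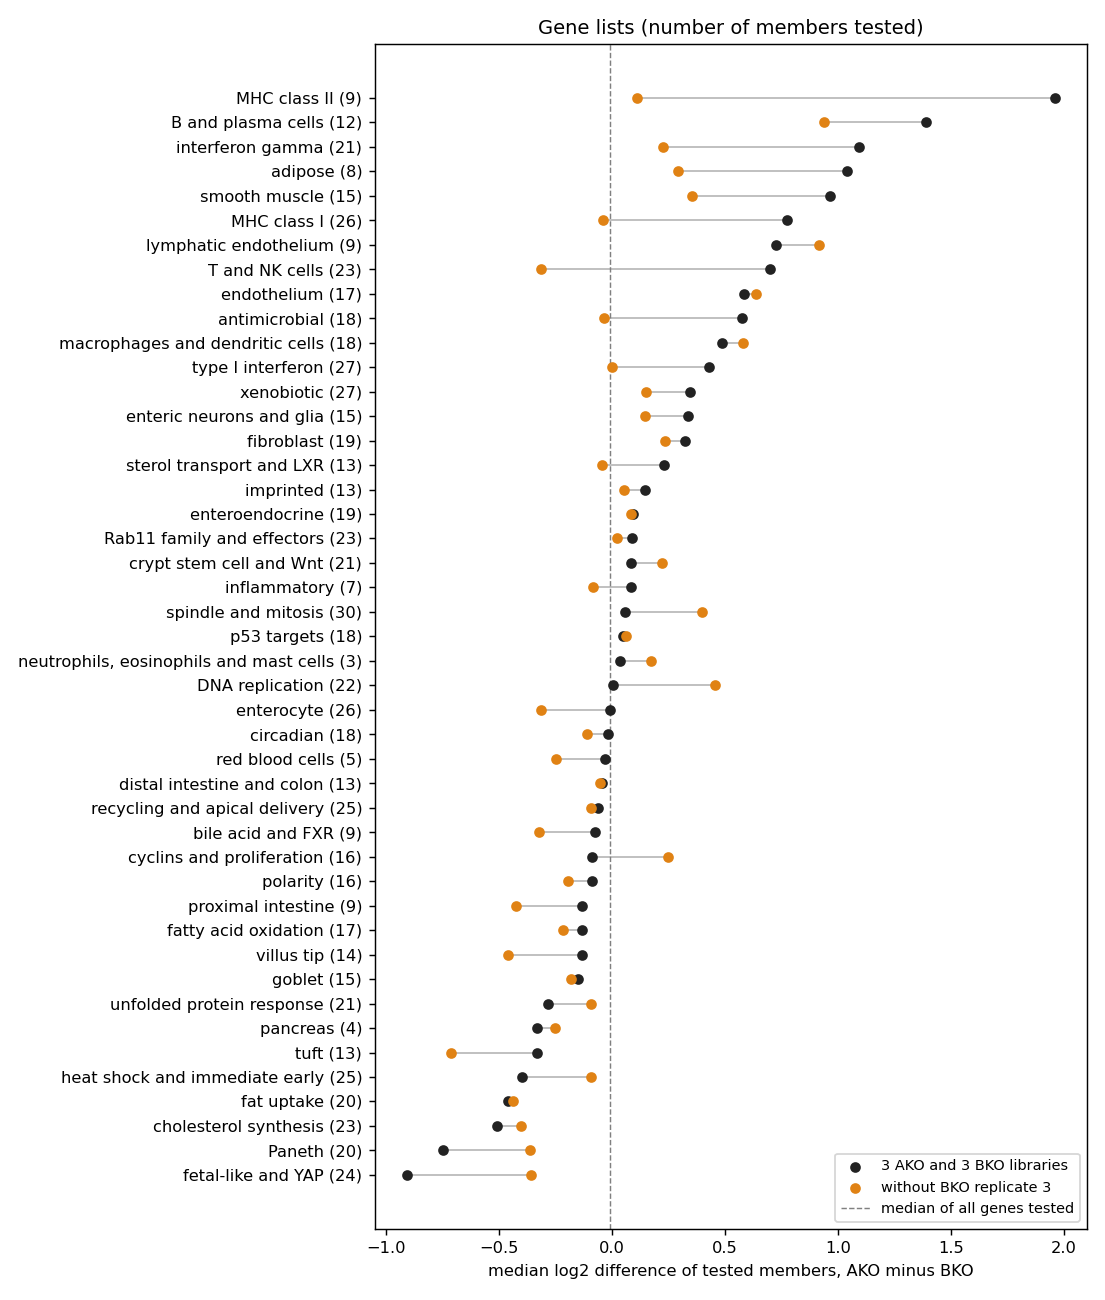
Median log2 difference AKO minus BKO of the measured members of each gene list, with their number in parentheses, over all libraries (black) and without BKO replicate 3 (orange); the dashed line is the median of all 13065 genes. Cholesterol synthesis (-0.51 and -0.40), fat uptake (-0.46 and -0.44) and endothelium (0.58 and 0.64) moved little with that library, whereas MHC class II was at 1.96 with it and 0.11 without it. Lymphatic endothelium was at 0.72 and 0.92. That list was drawn up after its values were seen, shares genes with the endothelium list and supports nothing. The other lists were chosen with earlier results of these data known and are no independent support either.

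The p53 target list had a median of 0.05 (0.06 without BKO replicate 3), and Ccng1, a p53-induced cyclin, was at 123, 230 and 139 fpm in AKO, against 104, 115 and 99.0 fpm in BKO libraries (0.57 ± 0.21, adjusted p = 0.391). Among circadian genes, with a median of -0.02, Npas2, a partner of the clock factor BMAL1, was at 19.1, 23.4 and 22.1 fpm in AKO, against 38.4, 41.1 and 32.1 fpm in BKO libraries (-0.76 ± 0.16, adjusted p = 0.229). Fads1, a fatty acid desaturase, was at 31.4, 27.2 and 31.7 fpm in AKO, against 20.8, 18.1 and 20.2 fpm in BKO libraries (0.59 ± 0.12, adjusted p = 0.229). Neither pair of groups overlapped, with the AKO libraries lower for Npas2 and higher for Fads1. Reg3g, an antimicrobial lectin, was at 4691, 3533 and 5150 fpm in AKO, against 1816, 2279 and 1378 fpm in BKO libraries, again without overlap (1.30 ± 0.44, adjusted p = 0.362). The xenobiotic list had a median of 0.35 and 0.15 without BKO replicate 3. Of its 27 measured genes, 5 were higher and 1 lower in AKO without overlap, beside 6.35% and 9.18% of all genes. At a limma unadjusted p under 0.05, 9 were higher and 1 lower, beside 602 and 793 of all 13065 genes. Limma, edgeR and DESeq2 called 0 of them. The unfolded protein response list had medians of -0.28 and -0.09, and the heat shock and immediate early list -0.40 and -0.09, with and without that library. Mitochondrially encoded genes were not analysed here. The 21 pancreatic genes, a check for attached tissue, had 16 at 0 in all 6 libraries, and 4 were measured. The summed level of the list was 2449 to 4417 fpm in AKO, 2810 to 3202 fpm in BKO and 3015 to 3096 fpm in WT libraries. Limma and edgeR called 0 of the 4, and DESeq2 called Pnliprp2 lower in AKO (DESeq2 adjusted p = 0.0105). Whether attached tissue was present was not tested.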

How the data were processed

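RNA from whole jejunal tissue was sequenced in 12 libraries, 3 in each of 4 groups. FastQC 0.11.3, Trimmomatic 0.36, DESeq2 and the mouse build mm9 are listed per the submitters' processing notes. No aligner, counter or annotation is named there, although the table's title mentions HISAT2, and the library kit in the labels does not mark strand. The deposited table holds a signal per gene (fpm, as the table is titled), which the authors scaled by size factors. Every value was a whole number of reads times a step for its library, within 0.001, so reads could be recovered.

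The deposited values were tested with limma 3.58.1 (R 4.3.3) on log2(value + 1), so differences of low genes are understated. The fit used all 12 libraries, with 1 coefficient per group and the contrast AKO minus BKO, and two-sided p-values were adjusted by Benjamini-Hochberg over all 13065 genes. A gene was called at an adjusted p under 0.05. edgeR 4.0.16 and DESeq2 1.42.0 on the recovered reads were alternatives, beside other pseudocounts, filters, scalings, weights, a replicate block, an Xist term and libraries left out. The code was tested on simulated data. No overlap means that all libraries of a group lay above all of the other.

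The genes named are those with the best supported differences with and without BKO replicate 3, and set members of the gene lists. Members and lists were chosen with earlier results of these data known. RefSeq's GRCm38.p6 table gave gene names, chromosomes, gene order and promoter sequence only, and 23800 of 23988 symbols matched it. Single values of some listed genes are not reported here.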

Additional observations from a re-analysis of the deposited data

How the results depend on the processing

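The count of 10 called genes moved most with the tool: 213 by DESeq2, 66 with library quality weights, 5 by edgeR with or without the filter, and 2 when only the 6 AKO and BKO libraries were fitted. Leaving out each library in turn gave 3 (without AKO replicate 2) to 22 (without BKO replicate 1) calls, with 5 and 4 without AKO replicates 1 and 3. Leaving out AKO replicate 2 and BKO replicate 3 together, chosen after seeing the data, gave 22. A fit with the replicate number as a block gave 4; same-numbered AKO and BKO libraries correlated at 0.0856, 0.193 and 0.112, and every library correlated best with its own number, which is a hint from the data and not from the design. The share of calls higher in AKO was 90% here, 63.6% with quantile scaling and 33.8% by DESeq2. Rab11b and Gm8801 kept their call throughout, Rab11a lost it in 1 of 21 settings, H2-Bl and Mmrn1 in 4, Gdpd3 in 7, BC064078 in 8, Ccl21a in 10, Pianp in 12 of 20 and A930015D03Rik in 13 of 20; none changed sign. Some uncalled genes did. With quality weights the log2 difference was 0.17 for Rab25, 0.0387 for Birc5, 0.13 for Cdca8, -0.13 for Gzma, -0.39 for Ccl5 and -0.26 for Zg16. With both libraries left out it was 0.10 for Rab25, 0.0568 for Birc5, 0.19 for Cdca8, -0.26 for Gzma, -0.65 for Ccl5 and -0.31 for Zg16. Column-sum scaling gave 0.0237 for Rab25 and 0.0845 for Bpgm, and moved the median of all genes to 0.10. Quantile scaling gave 0.0574 for Bpgm, and an Xist term 0.0376 for Bpgm and -0.0604 for Lyz2. Ccl5 was at -0.36 by edgeR, -0.37 by edgeR without filter and -0.35 by DESeq2, Lyz2 at -0.0042 by edgeR without filter, and Ndn at -0.31 with a filter of at least 5. Over single left-out libraries the range was -0.23 to 0.0642 for Rab25, -0.0225 to 0.72 for Pcna, -0.36 to 2.92 for Gzma, -0.98 to 1.98 for Ccl5, -0.39 to 0.63 for Lyz2, -1.05 to 0.27 for Siglec5, -0.25 to 0.11 for Bpgm and -0.24 to 0.19 for Zg16. The causes were not tested.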

Other observations

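Some genes split the libraries within a group, and these 3 were chosen after their values were seen. Hddc3, a hydrolase of guanosine tetraphosphate-like nucleotides, was at 1.78, 1.48 and 1.45 fpm in AKO, against 14.1, 14.9 and 1.25 fpm in BKO libraries, and at 0.873, 8.44 and 1.05 fpm in DKO libraries. Cnbp, a nucleic acid binding protein, was at 254, 281 and 270 fpm in AKO, against 84.5, 86.9 and 359 fpm in BKO and 119, 297 and 104 fpm in WT libraries. Pik3r1, a regulatory subunit of phosphoinositide kinase, was at 119, 116 and 129 fpm in AKO, against 43.8, 32.9 and 61.9 fpm in BKO and 40.2, 43.9 and 119 fpm in WT libraries (log2 difference 1.42, limma adjusted p = 0.303).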
